A study of Mus musculus with 18 samples.

Results

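The diet and STZ effect averaged over AOS was taken from kidney RNA of 12 of the 18 samples of the series, in 4 groups of 3. All were ICR mice aged 10 weeks. Control mice have no treatment named. AOS mice received 10 mg/kg of AOS, whose full name is not given. HS mice were given a high fat diet and STZ (streptozotocin), and HS_AOS mice the same diet and STZ plus AOS at 10 mg/kg. The main effect is the mean of HS and HS_AOS minus the mean of control and AOS on log2(FPKM + 1), so that 6 samples with the diet and STZ stand against 6 without. FPKM are fragments scaled by transcript length and library size, and a change on this scale understates that of genes at low levels. A gene entered the test if 3 of the 12 samples or more had 1 FPKM of it, as was the case for 12191 of 19545. The labels give no duration or dose of the diet or STZ, and no blood glucose. Whether each sample is a mouse of its own is not stated, so p-values measure only the spread between the samples, which may be technical.

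STZ enters cells through the glucose transporter GLUT2 and alkylates DNA. It destroys pancreatic beta cells and is used with a high fat diet to model diabetes, and GLUT2 is also present in the proximal tubule of the kidney. In the fed, insulin-replete state lipogenic genes such as Scd1 and Fasn are active through SREBP-1c. With low insulin, FOXO1 and PPARA raise genes of gluconeogenesis, fatty acid oxidation and ketogenesis, and the proximal tubule is one of the gluconeogenic tissues of the body.

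One library stood apart from the other 11. Control 3 had 15798 FPKM of Kap, which proximal tubule cells make under androgen control, where the other 11 had between 66020 and 155154. It also had 118 FPKM of Cyp11b1, an enzyme of the adrenal cortex, 19.4 FPKM of the injury marker Havcr1 and 2434 FPKM of Spp1. Its median correlation with the other libraries was 0.960, against 0.976 to 0.982 for the others. HS 3 held 38.3 FPKM of Cyp11b1 and 47.7 FPKM of Chga, a gene of the adrenal medulla, and the highest summed white fat markers (1419 FPKM, against 138 to 656 in the other 11). Deviations of single libraries ranked with GC content at a correlation of -0.295 in HS_AOS 2 and -0.611 in HS_AOS 3, and between -0.114 and 0.290 in the other 10. Proximal tubule markers summed to between 3699 and 6333 FPKM in the 12 libraries, so the labelled tissue was present in all of them. Read depth is unknown, since the values hold no counts. Each result that rests on control 3 is given below with and without it, a choice of emphasis made after the data had been seen.

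**Figure D1:**
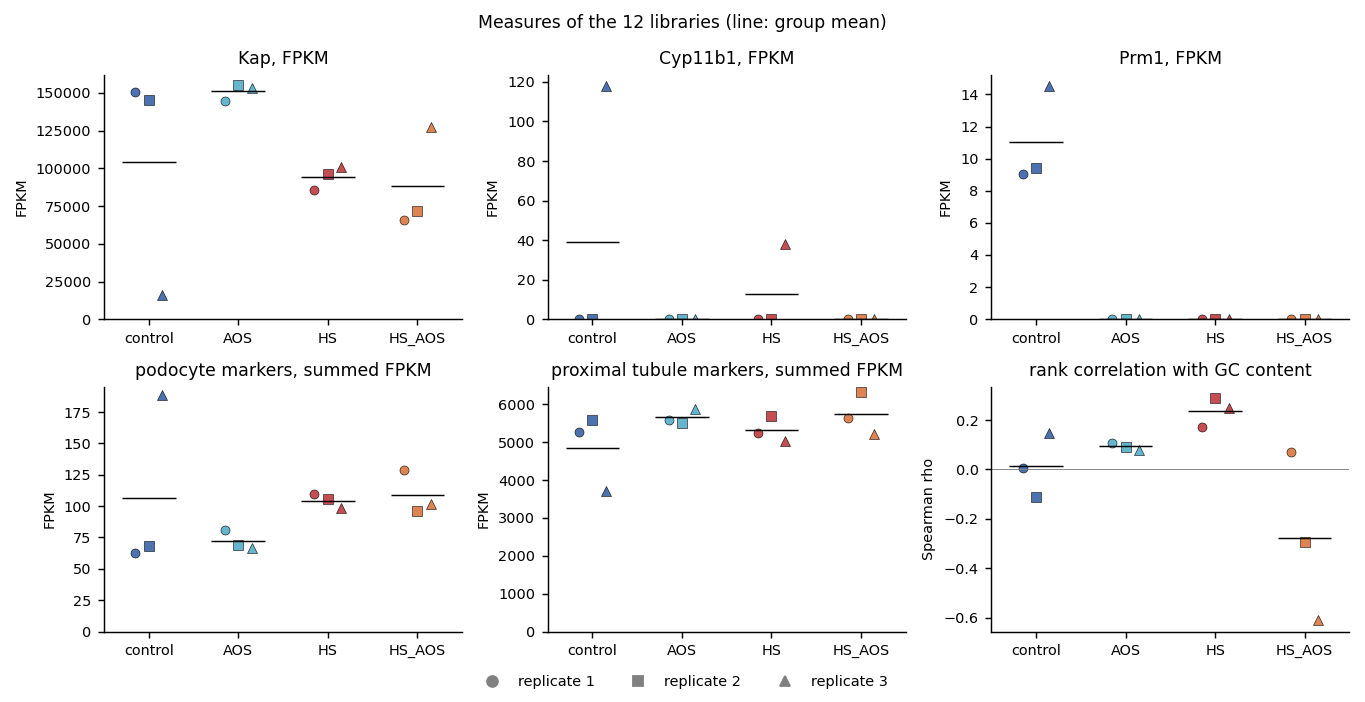
Levels in FPKM of Kap, Cyp11b1 and Prm1, summed FPKM of podocyte and proximal tubule markers, and rank correlation of deviations with GC content, 1 point per library and a line at the group mean (3 libraries a group). Control 3 is low in Kap (15798 FPKM) and high in Cyp11b1 and podocyte markers, Prm1 is listed above 0 in the 3 control libraries only, and HS_AOS 3 has the lowest GC correlation (-0.611).

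Over the 12 libraries, 34 genes passed for the main effect, 15 higher (0.123% of those tested) and 19 lower (0.156%) with the diet and STZ, together 0.279% (limma, Benjamini-Hochberg adjusted p under 0.05). An unadjusted p under 0.05 was reached by 1671 genes (13.7%), 1218 higher (9.99%) and 453 lower (3.72%). The 6 and 6 samples did not overlap for 117 genes (0.960% of those tested), and 23 of the 34 were among these. The genes that rose include transport and carrier proteins (Slc25a25, Slc26a6) and the secreted adipokine chemerin (Rarres2). Those that fell include the desaturase Scd1, the peroxisomal oxidase Acox2 and 3 enzymes of amino acid and one-carbon metabolism (Aadat, Gnmt, Acy1). The count depends on single libraries: it was 1 without control 1 or without control 2, 941 without control 3, 10 without AOS 1 or AOS 2, 11 without AOS 3 or HS_AOS 2, 16 without HS_AOS 1, 18 without HS 1 and 22 without HS 2. Of the 34, 28 passed again without control 3, and the other 6 fell below the filter on low values there. Those 6, germ cell transcripts described below, reached the filter over 12 libraries only through control. The small p-values of most of them also lower the adjusted p of the other 28. This bears on genes near the threshold, such as Ntn4 (limma adjusted p = 0.0497). How many of the 28 would pass over 12 libraries without those 6 was not computed. Of the 12 fits that each leave out 1 library, Aadat passed in 12 and Tmem52, Gnmt and Piga in 10. Slc25a25 passed in 8, Rarres2, Col27a1 and Acox2 in 3, and Scd1 and Csf1r in 2. Acy1, Palld, Nus1, Ntn4 and Mettl7a3 passed in 1.

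Slc25a25 (chr2:32414487-32451470, GRCm38), which encodes a mitochondrial carrier that exchanges ATP-Mg for phosphate, was at 16.2, 25.8 and 29.1 FPKM in control and 18, 21.0 and 29.4 in AOS. In HS it was at 90.3, 51.3 and 51.7 FPKM and in HS_AOS at 83.0, 54.0 and 72.7, so the arms did not overlap. Its main effect was 1.49 ± 0.20 (log2, SE; limma adjusted p = 0.0144). Slc26a6, an apical chloride, oxalate and bicarbonate exchanger, lay between 2.83 and 4.25 FPKM in the 6 samples without the diet and STZ. With them it was at 12.8, 5.82 and 5.71 FPKM in HS and 10.9, 9.26 and 9.75 in HS_AOS, above every sample of the other arm (1.14 ± 0.17, adjusted p = 0.0248). Ugt1a10, a conjugating enzyme whose last exons are shared with the other genes of the Ugt1a locus, averaged 140 ± 19.4 FPKM (SD, n = 6) without and 225 ± 46.8 with the diet and STZ, and the arms overlapped (adjusted p = 0.0405).

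Rarres2, whose product chemerin is an adipokine and chemoattractant, was at 51.3, 52.8 and 41.9 FPKM in control and 60.4, 65.3 and 37.6 in AOS. It reached 290, 127 and 103 FPKM in HS and 238, 136 and 128 in HS_AOS. The 6 values with the diet and STZ all lay above the 6 without (1.63 ± 0.26, adjusted p = 0.0302). Summed white fat markers were between 250 and 641 FPKM in control and 169 and 656 in AOS. They were between 171 and 1419 FPKM in HS and 138 and 227 in HS_AOS. The part of fat tissue in the values of Rarres2 was not tested. Col27a1, a fibrillar collagen gene, was between 8.45 and 10.1 FPKM in all 6 samples without the diet and STZ. It was at 46.8, 17.1 and 12.2 FPKM in HS and 48.8, 31.4 and 36.4 in HS_AOS (1.51 ± 0.26, adjusted p = 0.0423), and HS 3 was the sample nearest to the other arm. Tmem52, a membrane protein gene, rose by 1.43 ± 0.18, from 3.93 to 6.60 FPKM without to 9.78 to 23.8 with the diet and STZ.

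Rises were seen in 9 further genes. Piga, which starts the synthesis of glycosylphosphatidylinositol anchors, averaged 3.78 ± 0.295 FPKM (SD, n = 6) without and 6.01 ± 0.902 with the diet and STZ (0.54 ± 0.06, adjusted p = 0.00414). The 12 values of Piga fell in 2 separate ranges, 3.40 to 4.27 and 4.93 to 7.03. Nus1, a subunit of the dehydrodolichyl diphosphate synthase of protein glycosylation, rose by 0.28, and Sgpp1, a sphingosine-1-phosphate phosphatase, by 0.53. Both overlapped between arms. Tyw3, an enzyme of tRNA wybutosine synthesis, rose by 0.82, the histone H4 methyltransferase Kmt5a by 0.37, and Palld, an actin-associated scaffold, by 0.50, each without overlap. Osgin2 rose by 0.66 and Pde4dip, a protein of the Golgi and centrosome, by 0.36. The predicted gene Gm20594 rose as well, by 0.99, and its reads may be shared with copies elsewhere.

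Of the genes that fell, Scd1 (chr19:44394450-44407709), the desaturase that makes oleate and palmitoleate, changed most. It was at 82.1, 56.0 and 27.8 FPKM in control and 42.6, 42.0 and 37.1 in AOS, against 7.57, 6.25 and 23.9 in HS and 11.0, 8.54 and 7.21 in HS_AOS. The arms were separated by the gap between control 3 (27.8) and HS 3 (23.9). The main effect was -2.12 ± 0.32 (adjusted p = 0.0248) and -2.33 ± 0.30 without control 3. Scd1 passed in 2 of the 12 fits that each leave out 1 library, with a limma adjusted p of up to 0.0956. Acox2, which oxidises branched fatty acids and bile acid intermediates in peroxisomes, was between 25.6 and 49.8 FPKM without and between 11.7 and 25.1 with the diet and STZ (-1.24 ± 0.18, adjusted p = 0.0248). Mettl7a3, a methyltransferase-like gene with near relatives beside it that could share reads, fell from 6.37 ± 4.79 to 0.945 ± 0.561 FPKM (SD, n = 6).

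Aadat (chr8:60505843-60545677), the kynurenine and 2-aminoadipate aminotransferase of tryptophan and lysine breakdown, had the smallest p of the genes that fell without coming from control alone. It was at 218, 228 and 217 FPKM in control and 255, 235 and 185 in AOS. In HS it was at 108, 121 and 118 FPKM and in HS_AOS at 104, 112 and 130, so that the highest value with the diet and STZ stood well below the lowest without. The effect was -0.94 ± 0.09 (adjusted p = 0.000815), and Aadat passed in all 24 settings tried for single genes, the 12 that each leave out 1 library included. It was also the only gene that passed both in HS vs control (adjusted p = 0.0199) and in HS_AOS vs AOS (adjusted p = 0.0253), which share no sample. Those 2 calls were less stable. Aadat did not pass in HS vs control without any 1 of the 3 controls, nor without control 3 and HS 3 together. Settings in which it did not pass in HS_AOS vs AOS include those without AOS 1, AOS 2 or HS_AOS 2 and the replicate block.

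Gnmt, which uses glycine to consume S-adenosylmethionine, averaged 28.9 ± 4.40 FPKM without and 17.5 ± 2.47 with the diet and STZ (-0.69 ± 0.08, adjusted p = 0.00721). Its samples were between 23.5 and 36.0 FPKM and between 14.4 and 20.7, without overlap. Acy1, the aminoacylase that frees amino acids from their N-acetyl forms, fell by 0.53 on the log2 scale, from 266 ± 40.8 to 183 ± 12.9 FPKM, and control 3 (194 FPKM) overlapped with the other arm. Slc6a18, the apical neutral amino acid transporter of the late proximal tubule, fell by 0.77, from 91.3 to 152 FPKM without to 57.3 to 87.3 with the diet and STZ. Slc39a8, a zinc and manganese importer, fell by 0.55 and Tmem37, a calcium channel gamma-like subunit, by 0.56, both without overlap.

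Ntn4, a netrin of basement membranes, fell by 0.69, and the extracellular matrix gene Vwa2 by 0.67, from 5.15 ± 0.606 to 2.88 ± 0.493 FPKM. Izumo4, a relative of the sperm protein Izumo1, fell by 0.65. Csf1r, the receptor for the macrophage growth factor CSF1, was at 19.3, 16.5 and 14.9 FPKM in control and 19.3, 16 and 15.5 in AOS. It was at 9.45, 13.4 and 12.1 FPKM in HS and 10.2, 8.26 and 10.1 in HS_AOS, below every sample of the other arm (-0.64 ± 0.10, adjusted p = 0.0302). The other 11 tested macrophage and monocyte markers did not pass, and the median of all 12 was -0.05. Adgre1 gave -0.03, Cd68 0.14 and C1qa -0.13, with adjusted p between 0.780 and 0.968. In whole kidney fewer cells of a type and less RNA per cell cannot be told apart.

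**Figure D2:**
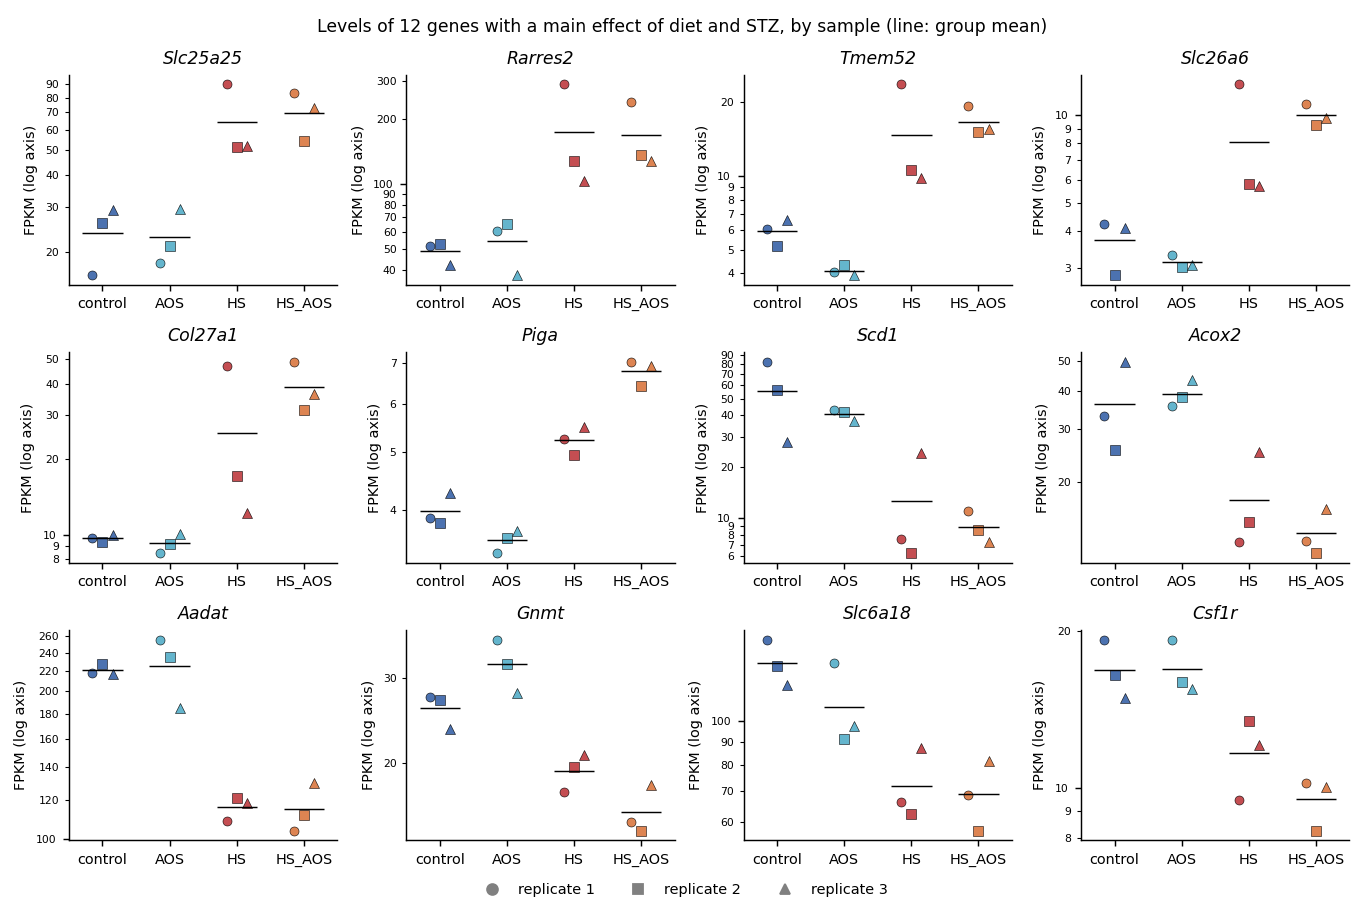
Levels in FPKM (log axes) of 12 genes that passed for the main effect, 1 point per sample with a marker shape for each replicate number, and a line at the mean of each group of 3. In each panel the 6 samples of HS and HS_AOS lie on one side of the 6 samples of control and AOS; the gap is narrowest for Acox2 (25.6 and 25.1 FPKM) and Slc6a18 (91.3 and 87.3).

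The remaining 6 of the 34 genes were transcripts of male germ cells, and their main effect came from the control libraries alone. They passed the filter on low values only through those 3 libraries, so that they had to differ, and their values are a description. Prm1, a protamine that packs sperm DNA, was at 9.07, 9.44 and 14.5 FPKM in control and is listed at 0 in the 9 libraries of AOS, HS and HS_AOS. Prm2, Tnp1 and Tnp2 showed the same pattern, with 4.99 to 6.86, 3.60 to 5.53 and 7.15 to 11.1 FPKM in control. Prm1, Prm2 and Tnp2 are neighbours on chromosome 16 (chr16:10787935-10796823 from the first base of Tnp2 to the last of Prm1). Oaz3 and Ldhc were at 2.33 to 3.55 and 1.2 to 2.01 FPKM in control and at most 0.20 and 0.07 elsewhere. AOS samples, which had neither the diet nor STZ, lacked them too, so the values separate control from the other 3 groups and not the 2 arms. Of 18 male germ cell markers 7 were tested, of which 5 passed as lower (0.156% of all genes) and 2 were positive. In every library 7 of the 18 were under 1 FPKM. All 18 summed to 64.5 to 69.4 FPKM in control, 24.5 to 30.1 in AOS, 34.7 to 45.1 in HS and 18.7 to 28.7 in HS_AOS. The part of carry-over of RNA from other tissue in these values was not tested.

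Promoters were read for 25 of the 34 genes that RefSeq's table (GRCm38.p6) holds, as the 250 bases before each annotated start. They were searched on both strands for CACGTG (the E-box core of SREBP and clock factors), TTATGTAA (D-box), TGACNNNGC (antioxidant response element core), and for the sterol regulatory, heat shock and endoplasmic reticulum stress elements. CACGTG stood in 6.86% of all genes' promoters, in 0 of the 12 matched genes that rose and in 3 of the 13 that fell (Vwa2, Slc39a8 and Acy1). TGACNNNGC stood in 11.5% of all genes' promoters, in 1 of the 12 that rose (Slc25a25) and in 6 of the 13 that fell (Tnp2, Acox2, Ntn4, Ldhc, Tmem37 and Slc39a8). The 13 include the germ cell genes Prm1, Prm2, Tnp1, Tnp2 and Ldhc, whose values do not separate the 2 arms. Tnp2 and Ldhc of the 6 with TGACNNNGC are therefore no genes of the diet and STZ. The heat shock element stood in Slc39a8 only and in 0.514% of all genes. The D-box (0.977% of all genes), the sterol regulatory element (0.0814%) and the endoplasmic reticulum stress element (0.130%) were found in none of the 25. A match is a description of the letters, not a binding site, and some windows match more than 1 motif. Shown are 3 windows without an annotated GENCODE exon in them: 2 of genes that fell and held a match, and 1 start of Slc25a25, the carrier that rose, which held none. Capitals mark the matches, read on the gene's strand, where both TGACNNNGC matches and the heat shock match stand in their reverse complement.
Ntn4, chr10:93640799-93641048, plus strand: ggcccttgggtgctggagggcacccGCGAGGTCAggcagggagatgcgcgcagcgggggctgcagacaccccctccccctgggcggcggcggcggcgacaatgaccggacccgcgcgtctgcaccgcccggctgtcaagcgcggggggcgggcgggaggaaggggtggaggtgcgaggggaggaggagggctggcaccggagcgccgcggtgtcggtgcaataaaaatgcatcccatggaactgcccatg
Slc39a8, chr3:135825029-135825278, plus strand: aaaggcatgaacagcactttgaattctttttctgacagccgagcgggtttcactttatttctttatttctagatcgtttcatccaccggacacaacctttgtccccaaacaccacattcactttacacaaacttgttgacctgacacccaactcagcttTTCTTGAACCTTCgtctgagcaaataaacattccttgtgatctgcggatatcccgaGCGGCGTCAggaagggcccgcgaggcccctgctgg
Slc25a25, chr2:32424067-32424316, minus strand: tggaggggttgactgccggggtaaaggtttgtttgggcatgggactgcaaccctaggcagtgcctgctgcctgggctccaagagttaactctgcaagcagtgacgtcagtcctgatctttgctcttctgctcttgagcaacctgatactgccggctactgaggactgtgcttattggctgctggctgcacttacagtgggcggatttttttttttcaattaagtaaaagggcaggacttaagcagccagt

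The average over AOS holds 2 contrasts that share no samples, HS vs control and HS_AOS vs AOS. HS vs control gave 8 genes (0.0656% of those tested, all lower), of which 7 were germ cell transcripts or Gm3448, listed above 1 FPKM in control alone, and the other was Aadat. HS_AOS vs AOS gave 13 genes (0.107%), 10 higher (0.0820%) and 3 lower (0.0246%). Across all 12191 genes the 2 contrasts were weakly related (Pearson r = 0.22, Spearman rho = 0.05), as a description over genes, which are not replicates. The contrasts moved all genes by a median of 0.00 and 0.10. A test of their difference passed for 6 genes (0.0492% of those tested). Those were Prm1, Prm2, Tnp1, Tnp2, Oaz3 and Defb29, a beta-defensin gene. Defb29 was at 213, 210 and 175 FPKM in control, 232, 247 and 244 in AOS and 253, 202 and 255 in HS, but at 108, 123 and 129 in HS_AOS. Its effect was 0.24 without AOS and -1.01 with AOS, a difference of -1.25 ± 0.16 (adjusted p = 0.0222). This call of Defb29 was lost in 10 of the 12 fits that leave out 1 library (adjusted p between 0.0646 and 0.343) and passed without HS 2 or HS_AOS 3. It was also lost with the GC and length trend removed (adjusted p = 0.240), while the estimate lay between -1.05 and -1.36 in all of these. The 5 germ cell genes reached the filter on low values only through the 3 control libraries, so their differences are a description.

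Among the genes of the main effect, Scd1 (-2.15 in HS vs control and -2.08 in HS_AOS vs AOS), Rarres2 (1.67 and 1.58), Aadat (-0.93 and -0.96), Slc39a8 (-0.54 and -0.55) and Kmt5a (0.39 and 0.35) had nearly equal estimates in both. Those of Gnmt (-0.41 and -0.97), Piga (0.32 and 0.77), Sgpp1 (0.27 and 0.79), Pde4dip (0.13 and 0.59) and Nus1 (0.06 and 0.49) were larger with AOS, with an unadjusted p of the difference between 0.000744 and 0.0108 and an adjusted p of 0.371 for each. An unadjusted p under 0.05 for the difference (limma) was reached by 12.2% of all genes, 1482 of 12191. With the GC and length trend removed it was reached by 754 of 12063. HS_AOS 2 and HS_AOS 3 had the lowest GC correlations of the 12 libraries (-0.295 and -0.611). The part of GC content in the larger estimates with AOS was not tested. Nus1 lay between 79.6 and 85.2 FPKM in HS, near the 77.3 to 80.6 of control, and between 103 and 109 in HS_AOS.

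Without control 3, 941 of 12058 genes passed for the main effect (7.80%), 768 higher (6.37%) and 173 lower (1.43%). HS_AOS vs AOS then gave 1126 genes (9.34%), HS vs control, with 2 controls left, gave 2 (0.0166%, the stress-induced Gdf15 and the kinase Sgk1), and the difference gave 0, with 1528 genes at an unadjusted p under 0.05. Median GC content was 48.4% for the higher and 52.0% for the lower genes, against 49.8% for all. After quantile normalization of these 11 libraries 444 genes passed, 217 higher and 227 lower, so that the excess of higher genes was not seen on that scale. After removal of a trend on GC content and transcript length, 1235 passed, 1032 higher and 203 lower.

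**Figure D3:**
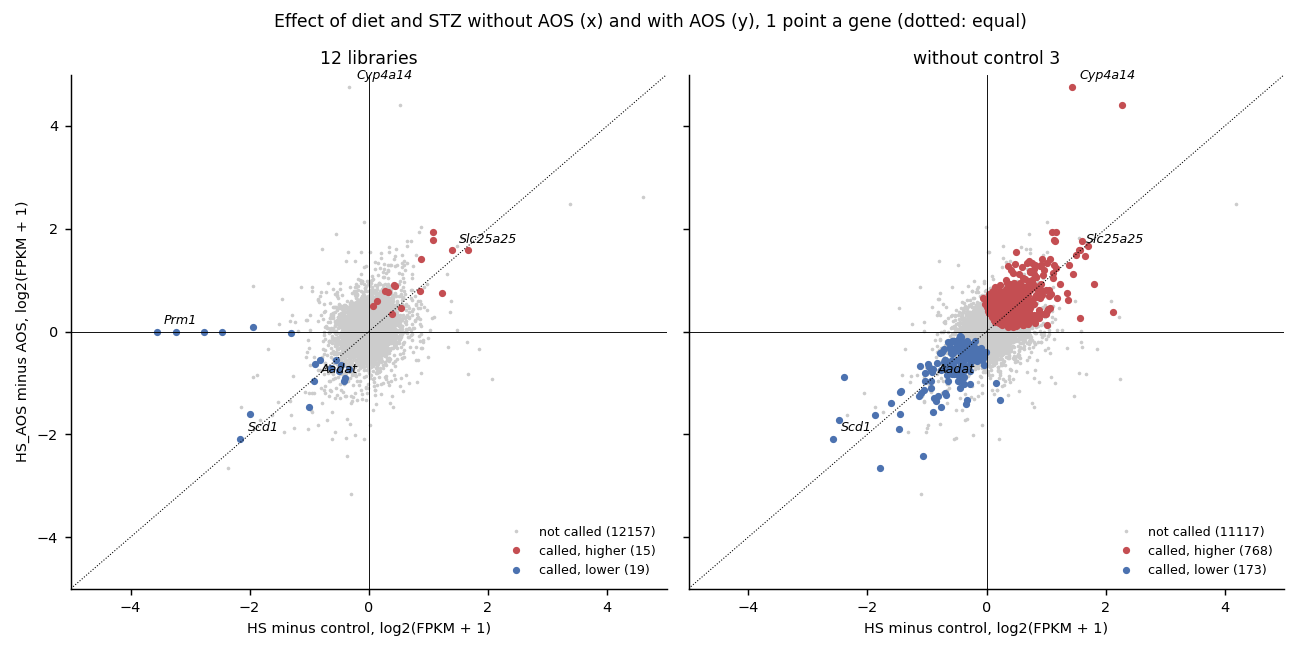
Effect of the diet and STZ without AOS (HS minus control, x axis) and with AOS (HS_AOS minus AOS, y axis) on log2(FPKM + 1), 1 point per gene, in 12 libraries (left) and without control 3 (right), with genes that passed for the main effect in colour. On the left the germ cell genes lie along the negative x axis with y near 0, with Prm1 at -3.56, and Scd1 and Slc25a25 lie near the dotted line of equal effects; on the right 768 genes passed as higher and 173 as lower.

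In the counts of list members below, the share of all genes called higher is 6.37% and lower 1.43% without control 3, and 1.80% and 1.88% after quantile normalization of those 11 libraries. Of 17 tested genes of fatty acid synthesis, Scd1 fell over the 12 libraries, and the list's median was -0.30, against 0.05 for all genes. Without control 3, Fasn, Acaca and Scd1 fell (3 of 17), and the median was -0.33. Fasn, the fatty acid synthase, was at 28.1, 22.3 and 7.0 FPKM in control and 12.9, 14.9 and 16.2 in AOS. It was at 3.69, 6.66 and 9.02 FPKM in HS and 3.83, 3.23 and 5.42 in HS_AOS, so that control 3 was the one sample without the diet and STZ inside the range of HS. Its main effect was -1.46 ± 0.30 (adjusted p = 0.0783) and -1.74 ± 0.19 without control 3 (adjusted p = 0.0034). Acaca, the acetyl-CoA carboxylase that makes malonyl-CoA, gave -0.69 ± 0.16 (adjusted p = 0.12) and -0.83 ± 0.11 (adjusted p = 0.00466).

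Of 22 tested genes of cholesterol synthesis and uptake, 0 passed over 12 libraries, with a median of -0.23 and 19 of the 22 negative. Without control 3, 3 of the 22 fell and 0 rose (median -0.21). Mvd, the mevalonate diphosphate decarboxylase, was one of them and fell by 0.32. Lpl, which releases fatty acids from circulating triglyceride, was at 177 and 251 FPKM in control 1 and 2 and 39.2 in control 3. It was between 106 and 169 FPKM in AOS, 63.8 to 97.6 in HS and 37.4 to 111 in HS_AOS, and fell by 1.30 without control 3. Lpin1 and Lpin2, phosphatidate phosphatases of triglyceride assembly, rose by 0.44 and 0.46 there, Lpin1 not after quantile normalization (adjusted p = 0.0668). Mogat2, an acyltransferase that makes diacylglycerol, was between 4.96 and 14.4 FPKM without and 15.4 and 44.5 with the diet and STZ, at the edge of the threshold over 12 libraries (1.57 ± 0.28, adjusted p = 0.0506).

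Of 36 tested genes of fatty acid oxidation and ketogenesis, none passed over 12 libraries, though 30 were positive (median 0.28). Without control 3, 9 rose and 1 fell (median 0.35).

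Cyp4a14, a fatty acid omega-hydroxylase and PPARA target, was at 8.56 and 2.42 FPKM in control 1 and 2 and 227 in control 3. It was between 1.15 and 1.54 FPKM in AOS, at 68.8, 6.25 and 6.41 in HS and between 57.6 and 67.4 in HS_AOS (3.10 ± 0.60 without control 3, adjusted p = 0.0227). Acaa2 and Eci1, enzymes of mitochondrial beta-oxidation, rose by 1.01 and 0.83, Acot2 by 0.76, the carnitine carrier Slc25a20 by 0.59, and Hadha and Hadhb, the subunits of the trifunctional protein, by 0.40 and 0.38. After quantile normalization Hadha, Slc25a20, Acot2 and Eci1 no longer passed (adjusted p between 0.0524 and 0.112). Ppara itself, the receptor that drives these genes in fasting, was between 8.90 and 12.1 FPKM in control and AOS and 9.96 to 12.8 in HS, and between 18.1 and 25.9 in HS_AOS. Without control 3 its effect was 0.23 without and 0.91 with AOS (unadjusted p of the difference 0.00761, adjusted 0.345). Bdh1, which makes 3-hydroxybutyrate, was the member that fell, from 73.1 to 93.8 FPKM without the diet and STZ, except for 39.1 in control 3, to 40.5 to 64 with them (-0.66 ± 0.14 without control 3, adjusted p = 0.0245).

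Of 12 tested genes of glucose transport and gluconeogenesis, 0 passed over 12 libraries (median 0.12), and 6 rose without control 3 (median 0.20). Pck1, the rate-limiting enzyme of gluconeogenesis, was at 524 and 491 FPKM in control 1 and 2, 1011 in control 3 and 514 to 664 in AOS. It was at 2395, 775 and 799 FPKM in HS and 2660, 2108 and 1845 in HS_AOS (1.38 ± 0.29, adjusted p = 0.0810, and 1.55 ± 0.28 without control 3, adjusted p = 0.0185). HS 1 and the 3 HS_AOS samples were far above the rest. Slc2a2, which encodes GLUT2, was between 31.6 and 40.7 FPKM without the diet and STZ, except for 64.8 in control 3, and between 45.6 and 75.3 with them (0.64 ± 0.08 without control 3, adjusted p = 0.00428). Fbp1 rose by 0.34, the glucose-6-phosphate transporter Slc37a4 by 0.27, the fructose transporter Slc2a5 by 0.50 and the urate transporter Slc2a9 by 0.38. Fbp1 and Slc2a9 did not pass after quantile normalization (adjusted p = 0.0861 and 0.183).

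Of 17 tested genes of insulin and FOXO signalling, 0 passed over 12 libraries and 5 rose without control 3. These were Igfbp3 (0.69), Arrdc4 (0.62), Foxo3 (0.42), the insulin receptor gene Insr (0.28) and Foxo1 (0.27). Foxo1 was between 8.57 and 10.0 FPKM in control 1, control 2 and AOS, 11.9 in control 3, 9.80 to 10.4 in HS and 12.8 to 13.3 in HS_AOS. Insr and Foxo1 did not pass after quantile normalization (adjusted p = 0.138 and 0.141).

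The p53 targets were the list with the highest share of called members once control 3 was left out. Over 12 libraries 0 of 16 passed, although all 16 were positive (median 0.45). Without control 3, 13 of 16 rose, against 6.37% of all genes (median 0.63). The arms did not overlap for 9 of the 16 (5.98% of all genes tested), and 11 rose after quantile normalization (1.80% of all genes). Cdkn1a, the cell cycle inhibitor p21, was at 14.9 and 7.11 FPKM in control 1 and 2, 82.6 in control 3 and 3.73 to 5.20 in AOS. It was at 43.4, 23.9 and 35.8 FPKM in HS and 16.9, 26.1 and 12.2 in HS_AOS (1.68 ± 0.24 without control 3, adjusted p = 0.0086). HS_AOS 3 lay below control 1, so that the arms overlapped. Ccng1, cyclin G1, was between 59.4 and 91.4 FPKM without the diet and STZ, except for 227 in control 3, and between 119 and 195 with them (1.05 ± 0.14, adjusted p = 0.00466).

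Phlda3, a repressor of AKT, was between 1.2 and 2.81 FPKM in 5 samples without the diet and STZ and 22.0 in control 3, and between 4.46 and 10.7 with them (1.33 ± 0.20). Plk2 rose by 1.00, Eda2r by 0.88, Zmat3 by 0.67, Mdm2, the ubiquitin ligase that limits p53, by 0.64, and the pro-apoptotic Bax by 0.32. Bax was between 63.1 and 66.7 FPKM in HS, 46.8 to 54.4 in HS_AOS and 44.0 to 46.2 in control 1, control 2 and AOS (unadjusted p of the difference 0.00465, adjusted 0.338). Control 3 had the highest value of the 12 libraries for Cdkn1a, Ccng1, Phlda3, Plk2, Eda2r, Zmat3, Mdm2 and Bax, and its injury marker Havcr1 was high as well. The part of injury in that library was not tested.

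Gdf15, a secreted stress cytokine of the ATF4 list, rose with the smallest p of the fit without control 3. It was at 4.31 and 4.28 FPKM in control 1 and 2, 28.2 in control 3 and 3.95 to 5.78 in AOS. It was at 18, 14.6 and 20.4 FPKM in HS and 11.1, 9.74 and 9.45 in HS_AOS, so both groups with the diet and STZ stood above, and HS above HS_AOS without overlap. The effect was 1.37 ± 0.10 (adjusted p = 0.000818), 1.81 without and 0.92 with AOS (unadjusted p of the difference 0.00139, adjusted 0.329). Of the 19 tested genes of the ATF4 list, Phgdh and Atf3 rose beside it, Phgdh not after quantile normalization (adjusted p = 0.0628). Atf3, which is also an immediate early gene, was at 2.62, 3.78 and 3.85 FPKM in HS and 1.40, 0.71 and 1.43 in HS_AOS, against 0.29 to 1.00 in control 1, control 2 and AOS. With control 3 out, Atf3 thus reached the filter on low values mainly through HS and HS_AOS, and its values are a description.

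Of 18 tested immediate early genes, 6 rose without control 3 (6.37% of all genes) and 0 over 12 libraries, and 3 rose after quantile normalization (1.80% of all genes). The 6 include Atf3, which reached the filter mainly through HS and HS_AOS. Nr4a1, an orphan nuclear receptor, was at 8.01, 19.4 and 10.8 FPKM in HS and 4.98, 3.83 and 2.78 in HS_AOS, against 1.61 to 3.2 in the samples other than control 3 without the diet and STZ. Its rise of 1.26 ± 0.21 was 2.13 without and 0.38 with AOS (unadjusted p of the difference 0.00228, adjusted 0.329). The heat shock chaperones, a further stress list, had 0 of 20 members called in either fit. Hspb1 was at 28.8, 94.3 and 127 FPKM in HS and 13.7 to 18.3 in HS_AOS, against 16.2 to 41.0 without the diet and STZ.

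Of 20 tested cell cycle and DNA replication genes, 0 passed over 12 libraries and 19 were positive (median 0.32), and without control 3, 10 of 18 rose (median 0.52), 7 of them after quantile normalization. Ccnd1, cyclin D1, was between 43.1 and 65.4 FPKM without the diet and STZ, except for 160 in control 3. It was at 95.4, 86.1 and 71.5 FPKM in HS and 135, 131 and 82.1 in HS_AOS (0.95 ± 0.15, adjusted p = 0.0091). Rrm1, a subunit of ribonucleotide reductase, was between 2.70 and 3.26 FPKM in 5 samples without the diet and STZ, 7.59 in control 3 and 4.51 to 6.27 with them (0.64 ± 0.07, adjusted p = 0.00221). Mki67, counted among the 10, was 0.52 higher, with 0.31 to 0.54 FPKM against 0.76 to 1.39 and 1.13 in control 3. With control 3 out, Mki67 reached the filter on low values only through HS and HS_AOS, so its values are a description. Ccnb2 rose by 0.68. Pcna rose by 0.37 but did not pass after quantile normalization (adjusted p = 0.0600).

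**Figure D4:**
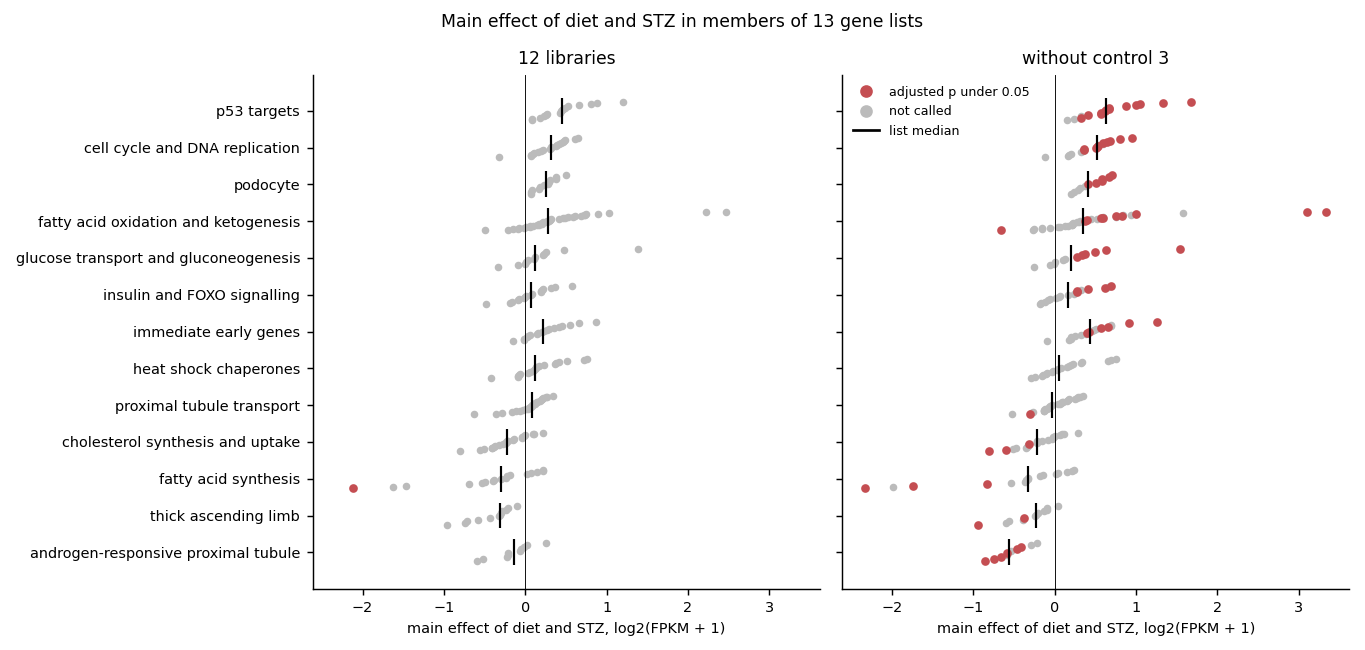
Main effect of the diet and STZ on log2(FPKM + 1) for the tested members of 13 gene lists, 1 point per gene, in the fit of 12 libraries (left) and without control 3 (right), with genes of adjusted p under 0.05 in red and a bar at the list's median. On the left only Scd1 is red; on the right p53 targets have 13 of 16 members called and a median of 0.63, and the androgen-responsive list has 6 of 10 called, all lower.

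Of 10 androgen-responsive proximal tubule genes, 0 passed over 12 libraries (median -0.14) and 6 fell without control 3 (median -0.56, all 10 negative). Kap, the most abundant of them, was at 150876 and 145522 FPKM in control 1 and 2 and 144521 to 155154 in AOS. It was at 85520, 96123 and 100914 FPKM in HS and 66020, 71447 and 127320 in HS_AOS. These ranges did not overlap, but control 3, at 15798, lay below them all. The effect was -0.21 ± 0.48 (adjusted p = 0.887) with control 3 and -0.75 ± 0.15 (adjusted p = 0.0211) without it. After quantile normalization the adjusted p was 1. That scaling gives the same value to the same rank in every library, so it cannot show a change in a gene whose rank stays the same. A gene as abundant as Kap may hold the top rank throughout, so no conclusion on Kap is drawn from that setting. Timd2 fell by 0.66, Gusb by 0.86, Cyp4b1 by 0.41, Slc7a13 by 0.46 and Cyp4a12a by 0.58. Cyp4a12a did not pass after quantile normalization (adjusted p = 0.0587).

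Of 12 podocyte markers, 0 passed over 12 libraries and all 12 were positive (median 0.25), and without control 3, 6 of 11 rose (median 0.41). Podxl, podocalyxin of the podocyte surface, was between 15.7 and 22.4 FPKM without the diet and STZ, except for 44.0 in control 3, and between 24.2 and 36.9 with them (0.58 ± 0.09, adjusted p = 0.0091). Apart from control 3, the arms did not overlap. Nphs1 and Synpo rose by 0.58 and 0.50, Ptpro by 0.41 and Cdkn1c by 0.71. Ptpro did not pass after quantile normalization (adjusted p = 0.0930). The 12 markers summed to between 62.9 and 81.1 FPKM in 5 libraries without the diet and STZ, to 189 in control 3 and to between 96.2 and 129 with them. The share of glomeruli in the pieces of kidney was not tested.

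Of 12 markers of the thick ascending limb, none passed over 12 libraries, and all were negative (median -0.31). They summed to between 8431 and 9147 FPKM in control and AOS, 7230 and 9749 in HS and 5743 and 6792 in HS_AOS, so HS spanned the other arm. Egf, a growth factor made there, was between 185 and 325 FPKM without and 158 and 188 with the diet and STZ (-0.43 ± 0.08, adjusted p = 0.0622). Umod, uromodulin, was between 583 and 1032 FPKM without and 218 and 635 with them (-0.96 ± 0.18, adjusted p = 0.0622), with only HS 2 inside the range of the other arm. Both fell without control 3 (adjusted p = 0.0146 for Egf and 0.025 for Umod). Of the renin-angiotensin list, Agt, angiotensinogen, rose by 0.85 there and Enpep by 0.43, and Mme, neprilysin, fell by 0.37. Enpep did not pass after quantile normalization (adjusted p = 0.0568).

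**Figure D5:**
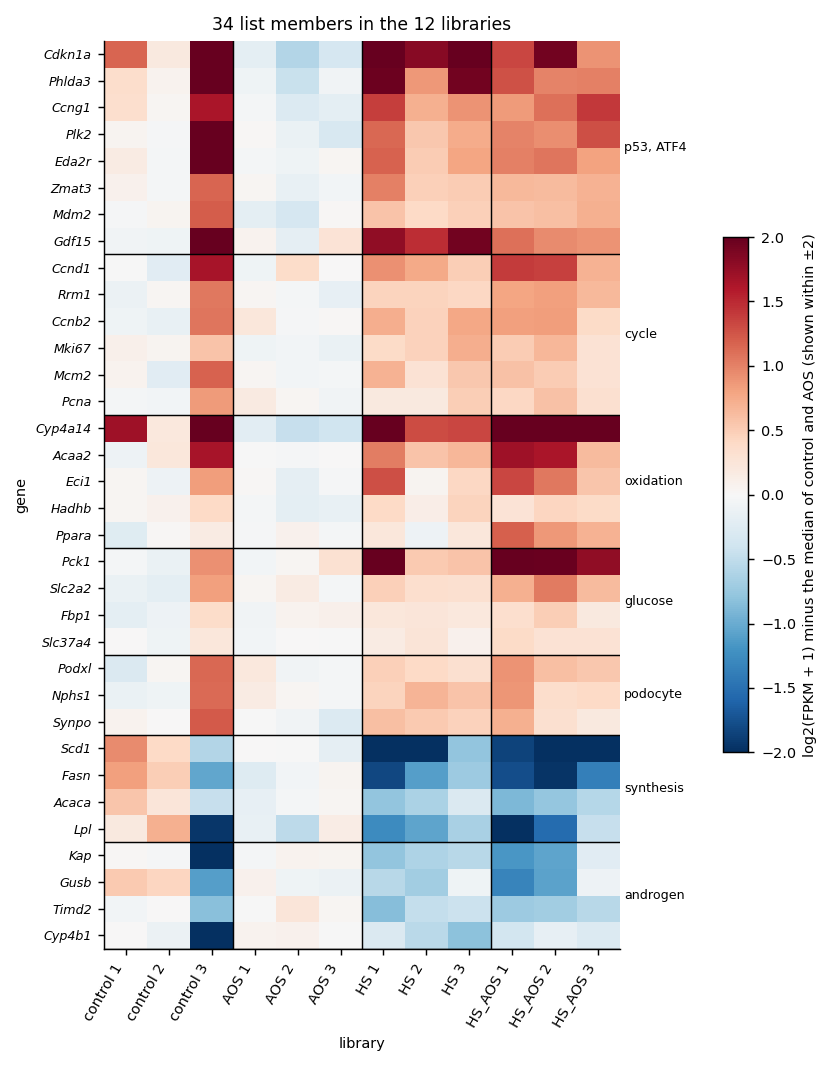
Levels of 34 list members in the 12 libraries as log2(FPKM + 1) minus the median of control and AOS (colour, shown within 2 either way), with genes in rows, chosen after their values were seen, and libraries in columns. Control 3 has the colours of the HS and HS_AOS columns, and mostly deeper ones, in the p53, cell cycle, oxidation, podocyte and androgen rows, while control 1, control 2 and AOS stay near 0 in most rows.

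Several other lists had no member called in either fit. These were interferon-stimulated genes (21 tested, median 0.03 over 12 libraries), class II MHC genes (6 tested, -0.01), tubular injury genes (-0.07) and proteasome subunits (28 tested, -0.05). Without control 3 the medians were 0.26 with 19 of 21 positive, 0.24 with 5 of 6, 0.18 with 9 of 10 and -0.07 with 7 of 28, in that order, against 0.09 for all genes. Spp1, the injury-associated osteopontin gene, was between 277 and 604 FPKM in all libraries but control 3. Vim was between 14.5 and 20.1 FPKM in control 1, control 2 and AOS and between 16.6 and 30.1 in HS and HS_AOS. Of 22 extracellular matrix and fibrosis genes tested without control 3, Sparc rose, chosen for mention after its value was seen (median 0.22). Endothelial markers (12, all positive without control 3, median 0.36) and fibroblast and pericyte markers (10, median 0.22) had none called. Defining markers of neutrophils were near 0, with 6 of 8 under 1 FPKM in every library, and summed to between 1.61 and 11.8 FPKM.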

How the data were processed

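Kidney RNA of 12 libraries was measured by RNA sequencing. The authors deposited 1 table of FPKM per gene and library, to 2 decimals. Per the submitters' processing notes, Bowtie 0.12.2 and the mm10 build were used. The counting program was not given in the sources used here. No counts are in the table and whole reads could not be recovered from it, so the depth is unknown and no counting error can be given.

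Values were taken as log2(FPKM + 1). Genes with at least 1 FPKM in 3 of 12 libraries were fitted with 1 mean per group (8 residual degrees of freedom) in limma 3.58.1 (R 4.3.3, trend and robust options), and p-values were adjusted by Benjamini-Hochberg over all genes tested, with a threshold of 0.05. The fit was tested on simulated data. The main effect, the contrasts within and without AOS and their difference came from this fit. GC content and length came from GENCODE transcripts, and positions and promoters from RefSeq GRCm38.p6. Tables were joined in Python 3.11.15.

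The comparison and the 50 gene lists were chosen with earlier results of these data known. Named were, per direction, up to 10 called genes with the largest change, at least 2 FPKM in the higher arm and no overlap between arms; the 4 members of each process list and the 2 of each marker list with the smallest p; and up to 5 genes per direction of the difference. Other named genes were chosen after their values were seen. Alternatives were other pseudocounts, filters and scalings, array weights, other fits, a replicate block and leaving out each library. Leaving out control 3 was among them, and its combinations with other settings were added after seeing the data. The other 6 samples of the series were not used. Some genes of the lists are not reported here by name.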

Additional observations from a re-analysis of the deposited data

Results flagged for a closer look

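The diet and STZ effect differed with and without AOS, by limma's test of the difference, for 5 germ cell transcripts and a beta-defensin gene. The differences (log2, with minus without AOS) were 3.56 for Prm1, 3.23 for Tnp2, 2.77 for Prm2, 2.47 for Tnp1 and 2.04 for Oaz3. All 5 come from the 3 control libraries, since the 9 others are listed at 0, or for Oaz3 at most at 0.20 FPKM. They reached the filter on low values only through those libraries, so the values are a description and no support for a difference. Defb29 differed by -1.25: it lay between 108 and 129 FPKM in the 3 HS_AOS samples and between 175 and 255 in the 9 others.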

How the results depend on the processing

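Against 34 genes for the main effect, 119 passed with no filter, 2629 with array weights (control 3 had a weight of 0.11), 133 in the fit of 18 samples, 615 without control 3 and HS 3, 17 with AOS left out of the fit, 21 in an additive fit and 12 with an absolute log2 change of at least 1. With control 3 out, 1235 passed with the GC and length trend removed, 444 with quantile normalization (217 higher and 227 lower, against 15 and 19 in the 12 libraries) and 1618 with HS_AOS 2 and 3 out as well. Quantile normalization of the 12 libraries gave 38, 10 higher and 28 lower. Leaving out 1 library gave 1 to 941.

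HS vs control (8) gave 167 with no filter, 3 at 5 FPKM, 66 with array weights, 5 without control 3 and HS 3, and 0 to 10 with 1 library left out (0 without control 1 or 2, with 739 and 709 at an unadjusted p under 0.05 in limma). HS_AOS vs AOS (13) gave 49 at 5 FPKM, 3 with quantile normalization, 4 with the GC and length trend removed, 4116 with array weights, 496 in the fit of 18 samples, 774 without control 3 and HS 3, and 0 to 1126 with 1 library left out (0 without AOS 1, AOS 2 or HS_AOS 2, with 1846, 1665 and 1966 at that unadjusted p). The difference (6) gave 62 with no filter, 2 at 5 FPKM, 1304 with array weights, 0 without control 3 and HS 3 (limma, 1077 at an unadjusted p under 0.05), and 0 to 6 with 1 library left out (0 without control 1, 2 or 3, with 1925, 1581 and 1528). The cause was not tested.

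With a replicate block the main effect gave 19 genes, 839 with control 3 out, HS vs control 7, HS_AOS vs AOS 0 (limma, 2259 at an unadjusted p under 0.05) and the difference 5. Same-numbered samples correlated between -0.329 and 0.223, over 0.1 in 6 of 18 pairs, and 6 of 12 samples correlated best with their own number, so the numbers were not taken to pair the samples.

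None of the 34 genes reversed in any setting in which it was tested. The 6 germ cell genes were not tested where a control library was left out, and 5 of the 34 were not tested at 5 FPKM. Of the values of named genes under alternatives, 2088 kept their side of the threshold, 152 passed newly and 192 no longer passed. The proximal tubule transport median (0.0868) was -0.0336 without control 3 and HS 3, and between -0.0319 (without control 3) and 0.12 (without control 2) with 1 library left out, and the B and plasma cell median (0.33) was -0.11 with array weights. Unknown depth, 3 samples a group and 1 deviating control limit what small changes can show.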

Other observations

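Some other genes passed once control 3 was left out (limma, 7.80% of genes tested). Of genes that met the naming rule there, Mgmt, which removes alkyl groups from guanine in DNA, was between 4.39 and 7.38 FPKM in control 1, control 2 and AOS and between 12 and 26.1 in HS and HS_AOS (1.49 ± 0.20, adjusted p = 0.00538). Control 3 stood at 28.2 FPKM, above them all, and over 12 libraries the effect of Mgmt was 1.14 (adjusted p = 0.202). Ephx1, the microsomal epoxide hydrolase, was between 13.7 and 19.1 FPKM without and 31.6 and 85.7 with the diet and STZ, and at 202 in control 3. Sgk1, a kinase that regulates sodium transport, was between 14.0 and 20.8 FPKM in control 1, control 2 and AOS, 34.0 to 34.7 in HS and 27.3 to 29.1 in HS_AOS, with 63.4 in control 3. Cpeb3, a regulator of translation, was between 8.86 and 14.1 FPKM in HS and 18.4 and 45.5 in HS_AOS, against 3.63 to 7.59 in the other samples except control 3 (11.7).

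Of the genes that fell there, Ces1g, a carboxylesterase, was between 4.79 and 15.1 FPKM without the diet and STZ, except for 1.58 in control 3, and between 0.49 and 2.15 with them (-2.10 ± 0.27, adjusted p = 0.0049). Mep1b, the meprin beta protease of the brush border, was between 44.7 and 75.6 FPKM without, except for 29.0 in control 3, and 10.7 to 36.7 with them. Angptl7 fell by 1.19, not after quantile normalization (adjusted p = 0.0568). Of 24 antioxidant genes tested without control 3, Nfe2l2, which encodes NRF2, rose by 0.41, Hmox1 by 0.49 and Gsta2 by 1.07, and of 19 clock genes Nr1d1 rose by 0.99 and Nr1d2 by 0.72. Hmox1, Gsta2 and Nr1d1 did not pass after quantile normalization (adjusted p = 0.0705, 0.0518 and 0.0511). Hours of tissue collection were not given in the labels. Nr1d1 was at 7.57 and 12.3 FPKM in control 1 and 2, 40.2 in control 3 and 19.0 to 37.7 in AOS.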
